A study of Mus musculus with 64 samples.

Results

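Cytosolic ribosomal protein genes encode the protein component of the ribosome, and their messenger RNAs were followed in microdissected early distal convoluted tubules of mice fed furosemide. They were chosen by name alone: protein-coding genes whose symbol is Rpl or Rps with a number, or Rplp0, Rplp1, Rplp2 or Rpsa, leaving out the S6 kinases, Rps19bp1 and pseudogenes. The rule found 85 genes of 54331 in the table, 52 of the large subunit (Rpl) and 33 of the small subunit (Rps), and all 85 passed the filter on low counts. Sex, diet and time were crossed: male or female mice, a diet with furosemide or the control diet, and a diet lasting 12, 24, 48 or 96 h, with control mice of their own at each time. There were 16 groups of 4 libraries, 64 libraries in all. All mice carried the Pvalb-tdTomato reporter transgene (C57BL/6-Tg (Pvalb-tdTomato)15Gfng/J), which makes parvalbumin cells of the early tubule fluoresce, and all received the control diet before the experiment. The labels do not say that the 4 libraries of a group came from separate animals, so the p-values below measure the spread between libraries, which may in part be technical.

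Furosemide is a loop diuretic. It inhibits salt reabsorption by the thick ascending limb and so sends more salt to the distal convoluted tubule, the segment that reabsorbs it through the thiazide-sensitive cotransporter Slc12a3. The tubule is known to enlarge under such a load. Ribosomal proteins are made in near-equal amounts and assembled with ribosomal RNA in the nucleolus. Most of their mRNAs start with a short run of pyrimidines, the 5′ terminal oligopyrimidine (TOP) motif, through which growth signalling by mTORC1 controls their translation.

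Start-site sequence is shown for 8 members on which the results turn: genes with the clearest diet difference (Rpl38, Rps27l), the genes that separated the 96 h libraries from the earlier ones (Rpl37, Rpl27, Rps25, Rpl5), and Rps27 and Rpl22l1 from paralog pairs. The sequences are RefSeq's for GRCm38.p6, with 60 bases before and 30 from the annotated start, read 5′ to 3′ on the gene's strand. Capitals mark the longest unbroken run of C or T that covers the annotated start base or a base next to it.
Rpl38, chr11:114668520-114668609, plus strand: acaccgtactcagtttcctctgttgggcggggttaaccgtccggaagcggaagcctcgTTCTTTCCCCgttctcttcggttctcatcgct
Rps27l, chr9:66946026-66946115, plus strand: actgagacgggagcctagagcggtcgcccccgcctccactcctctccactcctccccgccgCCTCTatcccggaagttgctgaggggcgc
Rps27, chr3:90213619-90213708, minus strand: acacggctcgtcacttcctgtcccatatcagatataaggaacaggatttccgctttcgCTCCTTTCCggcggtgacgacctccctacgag
Rpl22l1, chr3:28805448-28805537, plus strand: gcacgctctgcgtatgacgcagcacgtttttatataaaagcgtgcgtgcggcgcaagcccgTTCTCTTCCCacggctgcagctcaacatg
Rpl37, chr15:5116553-5116642, plus strand: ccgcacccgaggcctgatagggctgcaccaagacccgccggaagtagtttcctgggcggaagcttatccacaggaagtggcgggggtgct
Rpl27, chr11:101442185-101442274, plus strand: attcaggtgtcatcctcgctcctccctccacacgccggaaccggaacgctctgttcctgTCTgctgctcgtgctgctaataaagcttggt
Rps25, chr9:44407654-44407743, plus strand: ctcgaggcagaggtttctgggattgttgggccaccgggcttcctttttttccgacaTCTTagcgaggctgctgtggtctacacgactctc
Rpl5, chr5:107900468-107900557, plus strand: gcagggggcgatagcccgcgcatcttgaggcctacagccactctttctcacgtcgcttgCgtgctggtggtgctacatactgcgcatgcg
The run covered the start base in Rpl38 (10 bases), Rps27 (9) and Rpl27 (3). In Rpl22l1 (10) and Rps27l (5) it began on the base after the start, and in Rps25 (4) and Rpl5 (1) it ended on the base before it. Rpl37 had none there. Rps27l has another annotated start, not shown, with a run of 2.

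Across the family, 65 of the 85 genes had an entry, with 77 annotated start sites. A run of at least 8 C or T that covered the start base was present in 22.1% of those sites (17), against 3.86% of the 32851 sites of all genes. Counting also runs that only touched the start from the neighbouring base, the shares were 26.0% (20 sites) and 5.97%. In windows of 300 bases, searched on both strands, CTCTTTCC was found in 16.9% of the members' windows and 3.12% of all windows. The shorter CTTTCC, which the former contains, was in 50.6% against 26.6%. CCGGAA, the core letters bound by ETS factors, was in 48.1% against 14.9%, and AAGATGG, the core of the YY1 motif, in 15.6% against 6.34%. TATAAA was in 9.09% of the members' windows and 13.6% of all windows. These matches describe the letters in the window, not binding.

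The libraries held between 12.71 M and 41.07 M estimated counts (M, 1e+06). Slc12a3 averaged 6700 estimated counts per 1e+06 (CPM, scaled by the trimmed mean of M-values, TMM) and ranged from 2790 to 16700, and Pvalb averaged 536 CPM. Slc12a1 of the thick ascending limb averaged 142 CPM, Slc34a1 of the proximal tubule 12.9 CPM and Aqp2 of the collecting duct 4.59 CPM. Umod, which was listed here with the distal convoluted tubule genes, averaged 4800 CPM. Markers of the connecting tubule and late distal convoluted tubule were mostly higher. Klk1 averaged 2500 CPM, Calb1 1940 CPM, S100g 332 CPM and Slc8a1 153 CPM, but Trpv5 2.28 CPM. Endothelial Plvap averaged 362 CPM and Pecam1 161 CPM, with Cdh5 at 7.10 CPM. Of immune markers Cd74 averaged 208 CPM and Cd3e 1.97 CPM. In 3 libraries the rank correlation with the other libraries of their own group was lower than in any of the rest: 0.449 in replicate 3 of female controls at 24 h, 0.703 in replicate 4 of female controls at 48 h and 0.723 in replicate 4 of furosemide males at 12 h, with the next at 0.811. The first bore directly on the ribosomal protein genes. It gave them 3.106% of its counts, 83 of the 84 members with a measurable ratio were above the median of the other 3 libraries of its group, and the median ratio was 6.78. The highest ratio was 26.2 for Rpl27, and Rps25 had 1.43. Its TMM factor was 0.4803, against 0.733 to 1.46 in the libraries other than these 3, and 2.40% of its counts were mitochondrial. In the female control of 48 h the median ratio was 1.14, and in the furosemide male of 12 h 0.618. The main comparisons are therefore given with all 64 libraries and without these 3. Levels per kilobase, paralog ratios, spread and the differences of the diet effect between times are given with all 64 libraries only.

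Levels differed widely between members. Per kilobase of transcript, Rpl41 and Rps29 were among the 3 highest over the 64 libraries, at 1271 and 1163 CPM per kb. Rpl41, which encodes a very short basic peptide, ranged from 567 to 3636 CPM per kb, and Rps29 of the small subunit from 546 to 3854 CPM per kb. These ranges overlapped almost entirely. The lowest members were Rpl39l at 0.243 CPM per kb, with 32 of 64 libraries at 0, Rpl10l at 0.372 CPM per kb with 13 libraries at 0, and Rpl3l at 7.12 CPM per kb. Rpl39l and Rpl10l are known from testis and Rpl3l from striated muscle.

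The stalk that recruits elongation factors is built from Rplp0, Rplp1 and Rplp2, which averaged 433, 700 and 560 CPM per kb. Among other members with known roles outside assembly, Rpsa, also known as the laminin receptor, averaged 171 CPM per kb, and Rps6, the protein phosphorylated by S6 kinase, averaged 169 CPM per kb. The X-linked Rps4x averaged 153 CPM per kb. Rpl10, which joins the large subunit late in its maturation, was low at 35.6 CPM per kb. Its 6 named pseudogenes took 260.5 CPM against 25.7 CPM of its own, so reads of Rpl10 and these copies could have been split in either direction.

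In 4 paralog pairs the copy usually regarded as the variant had the higher level per kb in most libraries. Rps27l, a paralog of Rps27 known as a target of p53, averaged 479 CPM per kb against 115 for Rps27. It was the higher of the pair in 64 of 64 libraries, with a median ratio of 4.04 and a range of 1.63 to 9.80. The retrogene Rps27rt was above Rps27 in 62 libraries, with a median ratio of 2.65. Rpl22l1 was above Rpl22 in 62 libraries, at 52.8 against 28.1 CPM per kb, with a median ratio of 1.88. That order rests on the annotated transcript lengths. In CPM it was reversed, for example 27.05 CPM of Rpl22l1 against 56.18 CPM of Rpl22 in female controls of 96 h (fit without the 3 libraries). Rpl36al was above Rpl36a in 50 libraries, with a median ratio of 1.25. Rpl3l, Rpl39l, Rpl10l and Rpl7l1 were below Rpl3, Rpl39, Rpl10 and Rpl7 in all 64 libraries. The ratio of Rps27l to Rps27 had a median of 3.89 in controls and 4.16 in furosemide libraries, within its range over libraries. Near-identical sequences share reads in such pairs, and a level per kb does not correct for that.

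**Figure D1:**
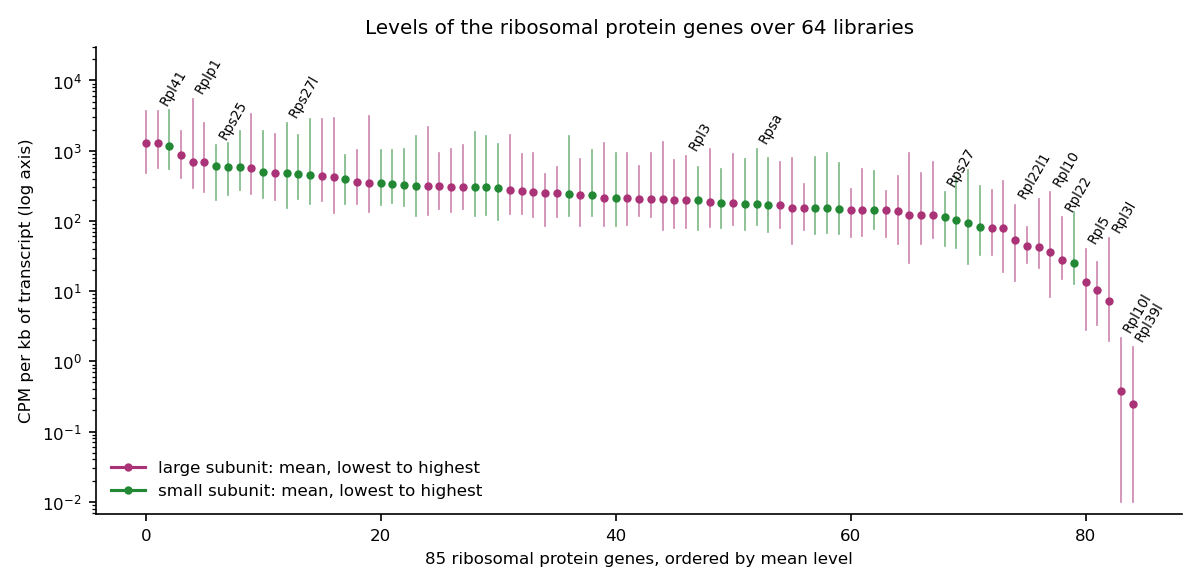
CPM per kb of transcript (log axis) of the 85 ribosomal protein genes, ordered by mean level. Points are means and lines run from the lowest to the highest of 64 libraries, with 0 drawn at 0.01. Rplp1 stands at 700 and Rpl39l at 0.243, and Rps27l lies above Rps27.

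Spread was smaller at the median of the members than at that of other genes. The standard deviation (SD) of log2 CPM over the 64 libraries had a median of 0.51 over the members and 0.74 over 20502 protein-coding genes at or above the lowest member. Within groups the medians were 0.49 and 0.69. The sets were not matched for level: 64 of the 85 members averaged 100 CPM or more, while the 20502 genes went down to the lowest member. The part of level in this gap was not tested. Rpl7l1, a relative of Rpl7, had the smallest SD at 0.30, then Rpl23 at 0.35 and Rps16 at 0.40. The largest SDs were those of the low Rpl10l, at 1.27, and Rpl39l, at 1.20, then of Rpl27 at 0.88 and Rpl37 at 0.86.

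As a share of all counts, the ribosomal protein genes took 1.42% ± 0.352 (SD, n = 32) in controls and 1.54% ± 0.209 (n = 32) in furosemide libraries. Leaving out the 3 libraries gave shares of 1.38% ± 0.154 (n = 30), from 1.047% to 1.687%, and 1.57% ± 0.171 (n = 31), from 1.099% to 1.888%. The mean share was then higher in furosemide in 8 of 8 pairs of groups. The smallest gap was in females at 96 h, 1.52% against 1.57%, and the largest in females at 24 h, 1.22% against 1.55%. In males at 96 h the means were 1.38% and 1.69%. The ranges of the libraries of the 2 diets overlapped. Large-subunit and small-subunit counts stood in a mean ratio of 1.40 in controls and 1.42 in furosemide.

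**Figure D2:**
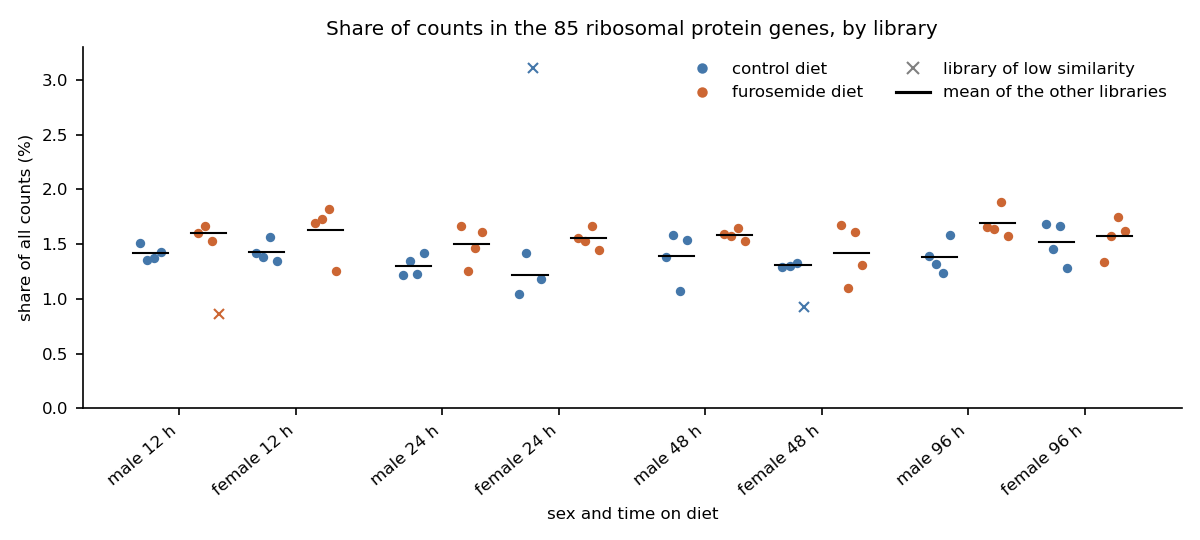
Percent of all counts in the 85 genes in each library, by sex, time and diet. Crosses are the 3 libraries of low similarity and bars the means of the other libraries. The cross at 3.106% is a female control of 24 h, and in each of the 8 pairs the furosemide bar lies above the control bar.

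Whether a diet with furosemide changed the ribosomal protein genes was tested at each time over both sexes, with the quasi-likelihood test of edgeR, adjusted over all genes after Benjamini and Hochberg. Adjusted p-values below are from this test. With all 64 libraries no member passed at any time: 0 of 85 at 12 h, 24 h, 48 h and 96 h, where 0%, 0.00964%, 0.00241% and 0.0819% of all genes passed. DESeq2 and limma voom also called 0 members at each time. At an unadjusted p under 0.05 there were 1, 11, 21 and 11 members, where 8.83%, 7.23%, 9.46% and 3.47% of all genes had one. The median log2 fold change (furosemide minus control) over the members was 0.24 at 12 h, -0.12 at 24 h, 0.44 at 48 h and 0.35 at 96 h, and 84, 26, 84 and 80 members were above 0. The negative median at 24 h rested on female control replicate 3, since it was 0.55 with all 85 members above 0 when that library alone was left out.

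The members with the smallest p at each time did not pass the test. At 12 h they were Rpl13a (log2 fold change 0.51), Rpl13 (0.54) and Rps15 (0.39), and Rps4x was the sole member below 0 (-0.02). At 24 h Rps25, which is known for initiation at internal ribosome entry sites, had 0.52 (233 to 391 CPM in controls, 327 to 517 CPM in furosemide). Rpl5, which binds 5S RNA and the p53 regulator Mdm2, had 0.61. Rpl39l had 4.45 from a few counts, with a median of 0 CPM in both diets. Rpl10 (-0.84), Rpl29 (-0.63) and Rpl27 (-0.75) were lowest at 24 h, and their values turned positive without the low-similarity libraries (0.10, 0.35 and 0.44). At 48 h Rpl5 had 0.78 and Rpl17 0.53, and Rpl39l had -0.49. At 96 h the values were 0.62 for Rpl38, 0.53 for Rpl36a and 0.51 for Rps16, with -0.81 for Rpl10l, -0.09 for Rpl10 and -0.05 for Rpl7.

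Averaged over both sexes and the 4 times, 1 of 85 members passed with all 64 libraries (0.588% of all genes passed), and that call was lost in 55 of 64 refits with a single library removed. DESeq2 called 6 members and voom 9, and the shares of all genes that they called are not given here. The median over the members was 0.22, with 82 of 85 above 0, while the median over all genes was -0.04.

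Once the 3 libraries were left out, 75 of 85 members were higher in furosemide and 0 were lower, where 5.81% of all genes passed in either direction. Leaving out female control replicate 3 of 24 h alone gave 73 members, all of them among the 75, with 5.11% of all genes. The 75 were 45 of 52 large-subunit and 30 of 33 small-subunit genes. The median log2 fold change over the members was 0.41, and -0.05 over all genes. The size of this difference depended on how libraries were scaled. TMM factors averaged 1.11 ± 0.157 (SD, n = 30) in controls and 0.963 ± 0.115 (n = 31) in furosemide. With library totals and no scaling factor, 46 members were higher and 0 lower (10.3% of all genes passed). The members' median was then 0.20 and that of all genes -0.26. Leaving out the factors moves all genes by about the same amount. The difference between the members and the median gene could therefore hardly change, and it does not test the scaling.

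Rpl38, a large-subunit protein known for its part in translating Hox mRNAs, had the smallest p without the 3 libraries. It ranged from 71.8 to 230 CPM in controls, with a median of 139, and from 112 to 304 CPM in furosemide, with a median of 207. The ranges overlapped, and the upper part of the furosemide range held no control. Its log2 fold change was 0.61 (standard error, SE, 0.092, adjusted p = 1.03e-05, edgeR). With all 64 libraries it was 0.41 (adjusted p = 0.131), and with no scaling factor and without the 3 libraries 0.41 (adjusted p = 0.000195). At 96 h the 4 male control libraries had 138, 151, 79.9 and 160 CPM of Rpl38 and the 4 male furosemide libraries 214, 235, 262 and 274 CPM. These did not overlap. In females at 96 h the controls had 230, 125, 140 and 84.7 CPM and the furosemide libraries 112, 211, 196 and 219 CPM, which did.

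Rps27l ranged from 76.7 to 280 CPM in controls (median 191) and from 150 to 397 CPM in furosemide (median 253). Its log2 fold change was 0.53 (SE 0.083, adjusted p = 2.25e-05), with 0.30 (adjusted p = 0.388) over all 64 libraries. In males at 96 h the controls had 226, 196, 165 and 253 CPM and the furosemide libraries 319, 341, 344 and 363 CPM, with no overlap. In females at 48 h the controls had 163, 137, 191 and 174 CPM and the furosemide libraries 309, 223, 284 and 242 CPM, again with no overlap. Its parent Rps27 rose by 0.38. By sex and time Rps27l was above 0 in all 8 contrasts, and Rps27 in 5. Rps27 had -0.27 in males at 12 h, -0.18 in males at 48 h and -0.05 in females at 96 h.

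**Figure D3:**
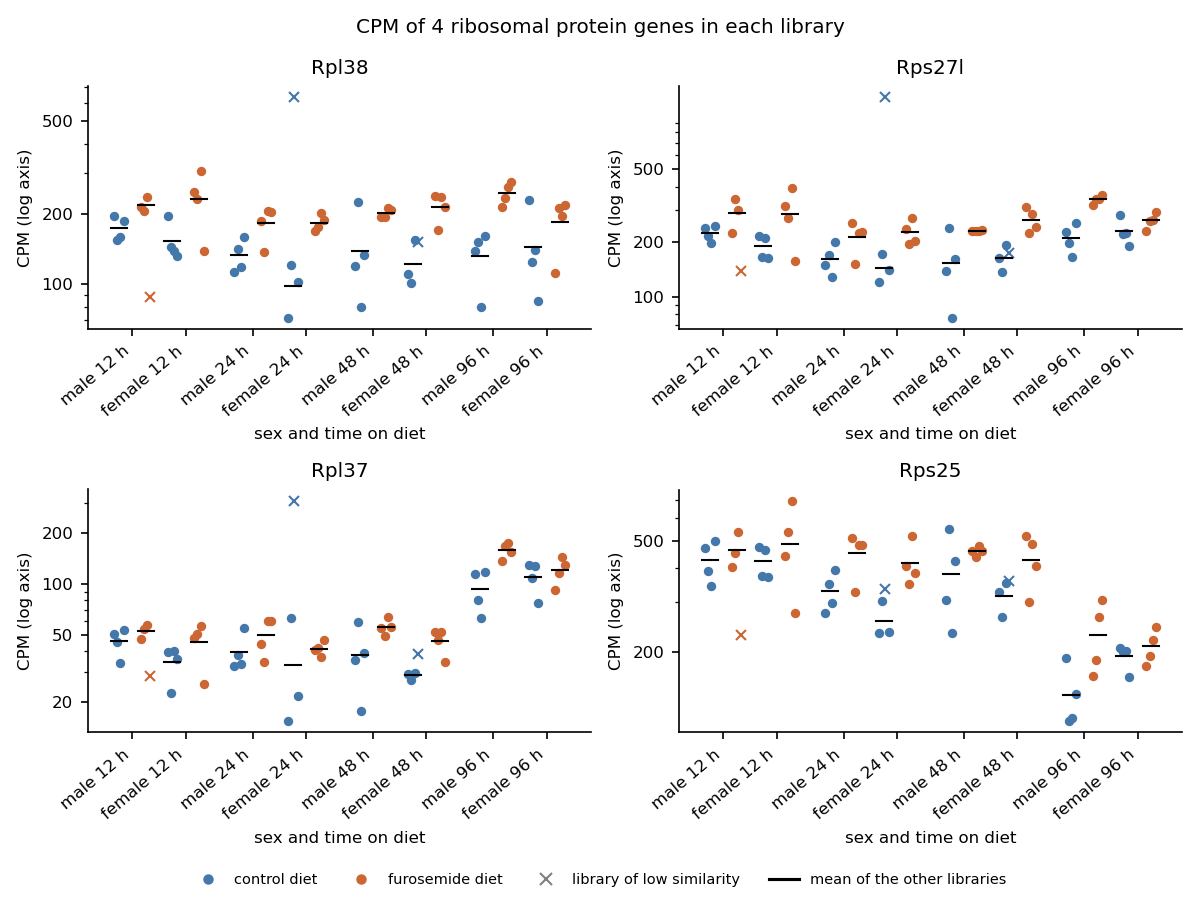
CPM (log axis) of Rpl38, Rps27l, Rpl37 and Rps25 in each library, by sex, time and diet. Crosses are the 3 libraries of low similarity and bars the means of the others. Rpl38 and Rps27l are mostly higher in furosemide, while Rpl37 is higher and Rps25 lower in the 96 h libraries of both diets.

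Other members followed with similar sizes, given without the 3 libraries. Rpl36al rose by 0.50, Rpl13a, which also acts in the GAIT complex that silences inflammatory mRNAs, by 0.54, and Rpl18 by 0.46. Rpl5 and Rpl12 rose by 0.53 and 0.52. In the stalk Rplp2 rose by 0.49, Rplp1 by 0.36 and Rplp0 by 0.29. Rpsa rose by 0.48, Rpl41 by 0.44, Rpl17 by 0.45 and Rps6 by 0.30 (adjusted p = 0.0228). In the mean over sexes and times both partners rose in the paralog pairs Rps27l and Rps27, and Rpl36al and Rpl36a (0.48). Both also rose for Rpl22l1 (0.40) and Rpl22 (0.35). With no scaling factor Rps27 had 0.18, Rpl22l1 0.20 and Rpl22 0.15, and these 3 did not pass. Rpl3l rose by 0.49 while Rpl3 had 0.21 and did not pass. Rpl39 rose by 0.42, and Rpl39l did not pass. With no scaling factor Rps6, Rplp0, Rplp1, Rpl5, Rpl12 and Rpl3l did not pass either, and the adjusted p of these 6 and of Rps27, Rpl22l1 and Rpl22 ran from 0.0587 to 0.374.

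The 10 members that did not pass were Rpl10, Rpl10l, Rpl3, Rpl39l, Rpl7, Rpl7l1, Rpl9, Rps3a1, Rps4x and Rps7. Rpl10 had 0.07, Rps4x 0.27 (adjusted p = 0.0586) and Rpl7 0.18. The lowest members over all 64 libraries had -0.15 (Rpl10), -0.00 (Rpl7) and -0.00 (Rps3a1). Of members at 100 CPM or more, 59 of 64 passed, and of those under 100 CPM 16 of 21.

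**Figure D4:**
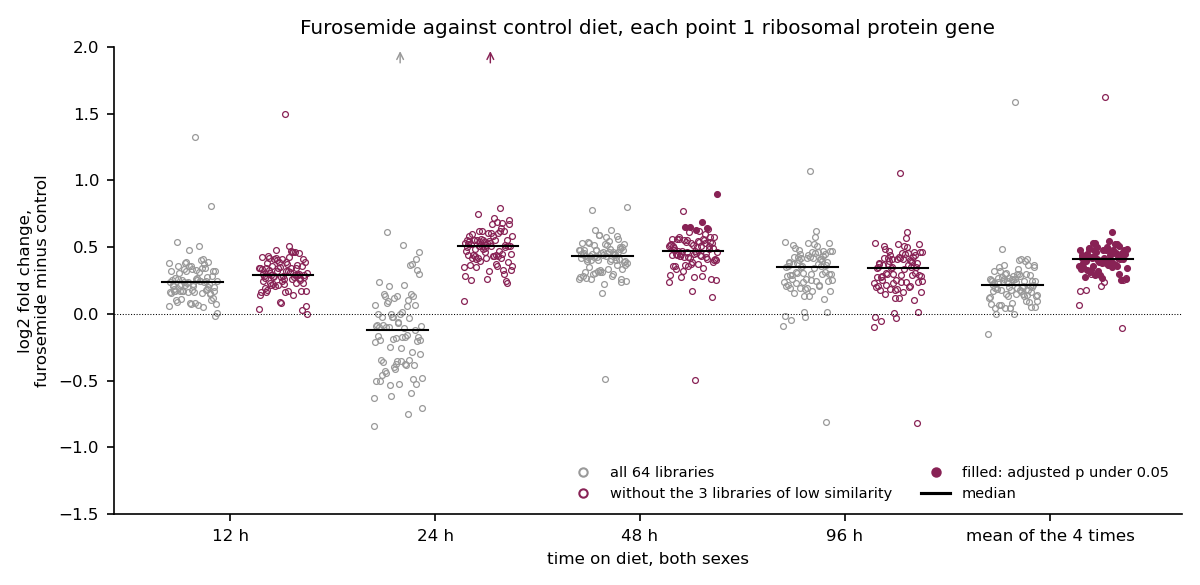
Log2 fold change of each ribosomal protein gene, furosemide minus control, at 12, 24, 48 and 96 h and as the mean of the 4 times. Grey points use all 64 libraries, dark points leave out 3, filled points passed at an adjusted p under 0.05, black bars are medians, and 2 points of Rpl39l at 24 h beyond the axis are arrows. At 24 h the grey median is -0.12 and the dark median 0.51.

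At single times without the 3 libraries, 6 members passed at 48 h, all higher (2.15% of all genes passed). They included Rps27l (0.65), Rpl38 (0.69), Rpsa (0.63), Rps2 (0.65) and Rpl3l (0.90). At 12, 24 and 96 h 0 members passed, where 0.00692%, 0.00692% and 0.309% of all genes did. Unadjusted p under 0.05 were found for 28, 73 and 38 members (9.83%, 11.7% and 5.42% of all genes), and the medians were 0.29, 0.51 and 0.34. The differences between times of the diet effect were tested in 6 pairs, and with all 64 libraries 0 members passed in any of them (0% to 0.00482% of all genes, with 0.00241% in the differences of 48 h and 96 h from 12 h).

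The 8 contrasts of 1 sex at 1 time share no library. In the fit that leaves out the 3 libraries, 60 of 85 members (70.6%) had a log2 fold change above 0 in all 8, against 3.16% of all genes and 5.73% of protein-coding genes. Of the members, 1 did with all 64 libraries. Genes of 1 library share its depth and scaling, so the members are not independent of each other in these counts. The signs are given with TMM scaling only, whose factors averaged 1.11 in controls and 0.963 in furosemide. Median values were 0.16, 0.41, 0.43 and 0.53 in males at 12, 24, 48 and 96 h, and 0.40, 0.57, 0.52 and 0.10 in females. Rpl38 had 0.33, 0.48, 0.54 and 0.89 in males and 0.60, 0.90, 0.84 and 0.33 in females. Over the 4 times, 6 members passed in males (0.496% of all genes) and 33 in females (1.79%), all higher. In males these included Rps27l (0.52), Rpl36al (0.50) and Rpl18 (0.49), and in females Rpl38 (0.67) and Rpl13a (0.65).

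The difference of the diet effect between the sexes was itself tested, and 0 members passed with all 64 libraries or without the 3 (0% of all genes in both). DESeq2 and voom called 0. The count at an unadjusted p under 0.05 was 2 with all libraries (5.81% of all genes) and 0 without the 3 (5.43%). The median difference (females minus males) was -0.28 and became 0.00 without the 3 libraries. Among the largest values with all 64 were -0.74 for Rpl27, -0.63 for Rpl18 and -0.53 for Rpl29, and 0.47 for Rpl5 and 0.32 for Rpl39l. Without the 3 they were -0.15, -0.04 and -0.03, and 0.48 and 0.21.

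Females against males in controls gave 0 called members (1.24% of all genes passed), with 3 at an unadjusted p under 0.05 (11.8% of all genes). Members with small p were Rpl13a (0.35, female minus male) and Rpl4 (0.34). Values below 0 included those of Rps27 (-0.32), Rps28 (-0.05) and Rpl36a (-0.03). The median was 0.15 with 75 members above 0. Leaving out the 3 gave -0.17 with 9 above 0, 0 members passed (1.22% of all genes), 17 had an unadjusted p under 0.05 (10.1% of all genes), and Rps27 had -0.51 (adjusted p = 0.0709).

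Genes that work with the ribosomal proteins were described by the same diet contrast, over sexes and times, without the 3 libraries. Of all genes tested, 5.81% passed in either direction. Among other proteins of the ribosome, Fau (0.48) and Rack1 (0.28) rose. Of 7 elongation factors 4 rose, with Eif5a at 0.50 and Eef1d at 0.43. Of 27 initiation factors 11 rose, with Eif2s2 at 0.46 and Eif3k at 0.43. Of 10 other TOP mRNAs 4 rose, among them Tpt1 (0.41) and Naca (0.40), with a median of 0.17. In ribosome biogenesis 11 of 38 rose, with Nhp2 at 0.54 and Nop10 at 0.45, both of the box H/ACA particles that modify ribosomal RNA. In growth signalling 2 of 16 rose, Akt1s1, an inhibitor within mTORC1, by 0.36 and Larp4 by 0.22. None of these genes was lower in furosemide. All 64 libraries together gave 0 called genes in any of these 6 lists.

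Mitochondrial ribosomal proteins, which belong to a separate ribosome, moved alongside: 56 of 78 rose, with a median of 0.30, Mrps16 at 0.56 and Mrps36 at 0.57. So did nuclear genes of oxidative phosphorylation, 24 of 27, with a median of 0.40, Cox5a at 0.58 and Uqcrb at 0.53. A single gene of each list (1) passed with all 64 libraries.

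Other measures of the libraries moved with diet as well, without the 3. Genes with at least 10 counts numbered 28760 ± 2070 in controls and 27310 ± 1930 in furosemide. The summed level of 14 genes of distal convoluted tubule identity was 27370 ± 3770 CPM in controls and 29640 ± 4060 CPM in furosemide. Over the 64 libraries Fxyd2 (12800 CPM), Slc12a3 (6700 CPM) and Umod (4800 CPM) had the highest means in that list. Umod was not counted among the thick ascending limb markers. The summed level of thick ascending limb markers was 203 and 208 CPM, of proximal tubule markers 47.3 and 45.0 CPM, and of connecting tubule markers 4440 and 4923 CPM. Their part in the difference was not tested. In bulk samples, fewer cells of a type and less RNA per cell cannot be told apart.

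Single members also differed between collection times, in both diets. Controls of 96 h were compared with controls of 12, 24 and 48 h, and 9 of 85 members passed with all 64 libraries, 4 higher and 5 lower at 96 h, where 12.3% of all genes passed (7.50% higher and 4.82% lower). With the 3 left out 26 were higher and 6 lower, where 22.3% of all genes passed (13.8% higher and 8.53% lower). With all 64 libraries the members' share was thus near that of all genes. Under another scaling (relative log expression), the split was 3 higher and 15 lower with all libraries, where the median of all genes moved to -0.16, and 22 higher and 15 lower without the 3. With no scaling factor it was 18 and 6, and 32 and 14. The shares of all genes that passed under these other scalings are not given here, so these counts cannot be set against all genes. Each of the 9 members passed under these scalings except Rps19, with a largest adjusted p of 0.0504.

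Rpl37 had 63.1 to 129 CPM (median 111) in the 8 control libraries of 96 h and 15.5 to 62.6 CPM (median 35.7) in the earlier controls without the 3. The groups did not overlap. Its log2 fold change was 1.48 (SE 0.156, adjusted p = 6.24e-11, edgeR), and 1.20 with all 64 libraries. Rpl27, a large-subunit protein like Rpl37, had 78.1 to 127 CPM at 96 h and 15.4 to 68.4 CPM before, also with no overlap, and rose by 1.37 (0.95 with all 64). Rpl21 rose by 1.00 and Rps19, the gene most often mutated in Diamond-Blackfan anaemia, by 0.98. Rps18, Rps7 and Rps6 rose by 0.85, 0.88 and 0.77 without the 3 libraries, and Rps6 did not overlap (157 to 219 CPM against 60.9 to 156 CPM).

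Rps25 went the other way. At 96 h the 4 male controls had 189, 113, 116 and 141 CPM and the 4 female controls 207, 200, 201 and 162 CPM, against 233 to 551 CPM in the earlier controls, with no overlap whether or not the 3 libraries were left out. Its log2 fold change was -1.09 (SE 0.146, adjusted p = 3.04e-08), and -1.11 with all 64. Rpl5 fell from a median of 19.3 to 7.98 CPM (-1.23, and -1.26 with all 64). Rps12 fell by 0.53 and Rpl9 by 0.52. With pseudogene counts added to the parent gene, Rps12 had 0.04 (adjusted p = 0.916), so that its call ended and its sign turned. Leaving out 1 library at a time ended the call of Rps19 without male control 96 h replicate 4, of Rps12 without female control 96 h replicate 4, and of Rpl9 without male control 96 h replicate 2 or 3 or female control 96 h replicate 1.

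The same contrast among furosemide libraries uses none of the control libraries, and was added after the controls were seen. With all 64 libraries 11 members passed there (6.29% of all genes), of which 8 passed in controls too: 72.7% of the 11 and 88.9% of the 9, with the same sign in all 8. Without the 3, 17 were higher and 7 lower (13.7% of all genes). Of these 22 were shared, 91.7% of the 24 and 68.8% of the 32, again with the same sign. The overlap of calls over all genes is not given here. Signs agreed between the diets for 72 of 85 members without the 3, against 73.1% of all genes. With all 64 libraries they agreed for 72 members and 73.2% of all genes. In furosemide Rpl37 rose by 1.49, Rpl27 by 1.34 and Rps19 by 0.85. Rps25 fell by 1.05, Rpl5 by 1.43 and Rpl9 by 0.84. In the 8 furosemide libraries of 96 h Rpl37 had 136, 167, 174 and 155 CPM in males and 91.7, 115, 145 and 129 CPM in females, above the 25.6 to 63.7 CPM of the earlier ones. Across the 85 genes, the log2 fold changes in controls and in furosemide had a Pearson r of 0.931 without the 3 libraries and 0.862 with all, where genes of 1 library share its depth and scaling.

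**Figure D5:**
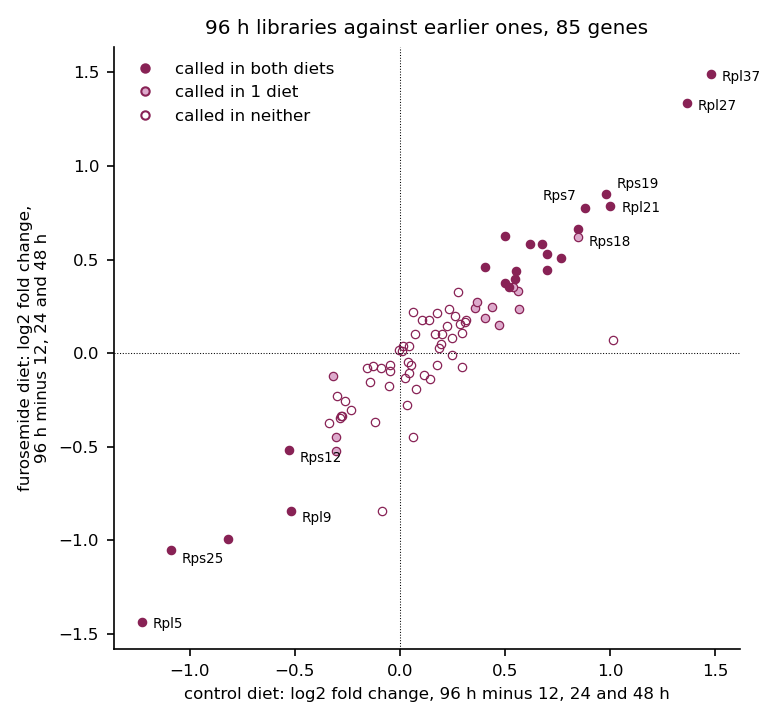
Log2 fold change of each ribosomal protein gene at 96 h against 12 to 48 h, in control libraries (x axis) and in furosemide libraries (y axis), without the 3 libraries of low similarity. Rpl37 and Rpl27 lie at the upper right, and Rps25 and Rpl5 at the lower left.

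The 96 h libraries differed from the earlier ones in more than diet time, and the part of these values in the result was not tested. Setting aside the 3 libraries, their median depth was 32.4 M counts against 19.15 M, and 30500 genes against 27050 had at least 10 counts. Mitochondrial genes had a median of 10.78% of counts against 17.83%. Lars2, which has a stretch resembling mitochondrial ribosomal RNA, had 10600 CPM against 36130 CPM. With Lars2 as a covariate and all 64 libraries 0 members passed. Because Lars2 itself differed between the 96 h and the earlier libraries, that fit cannot separate Lars2 from time. Rpl37 then had 1.05 (SE 0.371), Rpl27 0.59 (SE 0.419), Rps25 -0.73 (SE 0.234) and Rpl5 -1.18 (SE 0.345). Rps18 had 0.10 (SE 0.324) and Rps6 0.03 (SE 0.306). The labels do not state whether the 96 h libraries were made apart from the others. Among related genes without the 3 libraries, 22 of 38 biogenesis genes were higher and 4 lower at 96 h, with Sbds, which readies the large subunit for use, at 1.68. Of all genes tested, 13.8% were higher and 8.53% lower. Of 27 initiation factors 16 were higher and 1 lower, and of 78 mitochondrial ribosomal proteins 59 were higher and 2 lower, with Mrpl22 at 1.70.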

How the data were processed

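RNA of early distal convoluted tubules was made into libraries with SMART-Seq HT and Nextera XT, per the labels' protocols, with no strand and no molecular identifiers, so reads of a gene and an antisense or overlapping partner cannot be told apart. The deposited table holds estimated counts per gene, made by the authors with Salmon on GRCm38.p6, per the submitters' processing notes. No source used here gives further settings. Estimated counts were rounded to whole numbers, and symbols and transcript lengths came from a GRCm38 gene annotation by gene ID (54097 of 54331 had a symbol).

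edgeR 4.0.16 in R 4.3.3 (glmQLFit, glmQLFTest) was run on 41507 genes kept by filterByExpr with a minimum count of 10, with TMM scaling, 1 mean per group over all 64 libraries, and Benjamini-Hochberg adjustment over all genes tested. Calls needed an adjusted p under 0.05. Alternatives were RLE factors, TMM without the members, DESeq2 1.42.0, limma 3.58.1 voom, no filter, only the groups compared, a replicate block, Lars2 as a covariate, pseudogene counts added to the parent (286 pseudogenes), and leaving out libraries. Combinations of these without the 3 libraries, library totals with no scaling factor, and the contrasts within furosemide libraries and within each sex were chosen after seeing the data. The script was tested on simulated counts, drawn independently for each gene with a common spread. They held no library of low similarity and no scaling difference between diets, so that test does not bear on either. Library totals of 12.71 M to 41.07 M counts (M, 1e+06) limit the precision of genes such as Rpl39l.

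Members were chosen by symbol. Members named were a fixed set of 18 (Rplp0, Rplp1, Rplp2, Rpsa, Rps6, Rps4x, Rpl10, Rpl41 and 5 paralog pairs), the 3 with the smallest p in each direction of a comparison, and the 3 highest and 3 lowest in level and in SD. In the lists of related genes the 2 with the smallest p were named. Further members (such as Rps2, Rpl12, Rps18, Rps7, Rpl9 and Rps12) were named after their values were seen. Some genes that this rule names are not reported here. Members and lists were chosen with earlier results of these data known.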

Additional observations from a re-analysis of the deposited data

Results flagged for a closer look

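In female controls of 48 h, replicate 4 had 0.9231% of its counts in ribosomal protein genes, far below the other 3 libraries of its group. It is 1 of the 3 libraries of low similarity. In furosemide males of 24 h, replicate 2 had a mean log2 CPM of 6.54 over the members, far below the other 3. Chance flags about 1 in 20 groups of 4. Over single members, 89 of 1360 gene and group pairs (6.54%) had a library this far from the others, and 18 of them were in replicate 2 of the furosemide males of 24 h.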

How the results depend on the processing

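Setting 3 libraries aside changed several results. The members' median at 24 h was -0.12 with all 64 libraries and 0.51 without the 3 (0.468 with RLE, 0.512 with TMM computed without the members, 0.56 with voom, 0.496 with pseudogene counts added). Members called at 48 h went from 0 to 6 (4, 6, 39 and 5 in the same order), and at 96 h from 0 to 1 with RLE. For the mean over times, 1 member was called with all 64, 0 with RLE, 6 with DESeq2, 9 with voom, 0 with no filter, 4 with Lars2 as a covariate, 0 with pseudogene counts and 2 with no scaling factor. Leaving out the 3 libraries gave 75 (75 with RLE, 75 with TMM without the members, 78 with voom, 73 with pseudogene counts, 46 with no scaling factor). Females against males in controls gave 1 with RLE without the 3 libraries, and 1 with no scaling factor with or without them. For 96 h against earlier controls, 9 members became 18 with RLE, 22 with DESeq2, 15 with voom, 24 with no scaling factor and 0 with Lars2. Leaving them out gave 32 (37 with RLE, 32 with TMM without the members, 42 with voom, 30 with pseudogene counts, 46 with no scaling factor). The cause of these changes was not tested. Under most of these alternatives the share of all genes called is not given, so those counts of members cannot be set against all genes.

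Leaving out 1 library at a time, the 24 h median ran from -0.247 to 0.549, the mean over times called 0 to 73 members, and 96 h against earlier controls called 8 to 31. The upper end came in each case without female control replicate 3 of 24 h.

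Labels give every group replicates 1 to 4. Of 32 pairs of same-numbered libraries across diets, the correlation of their deviations exceeded 0.1 in 1. The median was -0.0037 and the range -0.296 to 0.246. No pairing by number was seen, but a weak pairing could be missed, and the labels do not state one. With a replicate block, the diet comparisons called 0 members at 12, 24, 48 and 96 h and 1 over the mean of times. The medians with the block were 0.186, 0.163, 0.465, 0.36 and 0.31.

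Log2 fold changes of some members changed sign. For 96 h against earlier controls without the 3 libraries, adding pseudogene counts turned the called values of Rps12 (-0.53) and Rpl10 (0.85) to 0.04 and -0.17, neither of which passed. The members that follow were not called with all 64 libraries. Orders below are without the 3 libraries, then also with RLE, with TMM without the members, with voom and with pseudogene counts. At 12 h Rps4x (-0.02) was 0.0122 with TMM without the members and then 0.0617, 0.038, 0.0629, 0.062 and 0.0598. At 24 h Rpl10 (-0.84) was 0.0986, 0.0552, 0.101, 0.075 and 0.429. Rpl29 (-0.63) was 0.352, 0.311, 0.355, 0.411 and 0.309, and 0.131 with no scaling factor. Rpl27 (-0.75) was 0.437, 0.399, 0.439, 0.585 and 0.425, 0.225 with no scaling factor, and 0.0357 with the replicate block. At 48 h Rpl39l (-0.49) was 0.00293 with voom and 0.214 with voom without the 3. At 96 h Rpl10 (-0.09) was 0.261 with Lars2, 0.136 with pseudogene counts and 0.164 with these without the 3, and Rpl7 (-0.05) was 0.291 with Lars2. Over the mean of times Rpl10 (-0.15) was 0.0691, 0.0351, 0.071, 0.00743 and 0.237, and with all 64 libraries 0.0181 with Lars2 and 0.0848 with pseudogene counts. Rpl7 (-0.00) was 0.176, 0.145, 0.178, 0.203 and 0.17. Rps3a1 (-0.00) was 0.236, 0.205, 0.238, 0.271 and 0.23, and 0.0273 with no scaling factor. Over all 64 libraries Rpl7 and Rps3a1 were 0.0154 and 0.0156 with TMM without the members, 0.0621 and 0.111 with voom, 0.00241 and 0.00366 with no filter, 0.0633 and 0.119 with the replicate block, 0.14 and 0.112 with Lars2, and 0.00435 and 0.00534 with pseudogene counts. Rpl36a in females against males (-0.03) was 0.0185 with Lars2.

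Leaving out 1 library, ranges that crossed 0 were -0.0891 to 0.0678 for Rps4x at 12 h, -1.03 to 0.141 for Rpl10, -0.793 to 0.392 for Rpl29 and -0.923 to 0.476 for Rpl27 at 24 h, -1.93 to 0.925 for Rpl39l at 48 h, and -0.183 to 0.0632 for Rpl7 and -0.251 to 0.0402 for Rpl10 at 96 h. Over the mean of times they were -0.0379 to 0.169 for Rpl7, -0.0367 to 0.234 for Rps3a1 and -0.213 to 0.106 for Rpl10. Between the sexes in controls they were -0.247 to 0.0281 for Rps28 and -0.218 to 0.0373 for Rpl36a, and for the difference of the diet effect -1.07 to 1.59 for Rpl39l.

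Depth limits Rpl39l and Rpl10l, which had 0 counts in 32 and 13 libraries. Estimated counts split among copies limit Rpl10 in particular. Time on diet and collection of the 96 h libraries cannot be told apart.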
